A study of Arabidopsis thaliana with 6 samples.

Results

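HAE (AT4G28490), HSL1 (AT1G28440), HSL2 (AT5G65710) and IDA (AT1G68765) are the receptor kinase and ligand genes of the HAESA abscission pathway in A. thaliana. These 4 genes of 27432 protein-coding genes were examined for the places where LEAFY (LFY), a transcription factor of flower development, was found on chromatin. They were chosen by name, with earlier results on these regions known, and all of their regions within 3 kb and out to 10 kb were taken. Chromatin immunoprecipitation followed by sequencing (ChIP-Seq) was done on whole 15-day-old seedlings, aerial parts and roots together, of 3 genotypes with 2 biological replicates each. p35S:LFYTERE (line CA29-17) expresses an LFY cDNA with the T75E and R112E changes in the Sterile Alpha Motif oligomerization domain, p35S:LFY (line CA26-15) expresses the unchanged cDNA, and Col-0 is the non-transgenic wild type used as control. The constitutive 35S promoter drives both transgenes, so binding is ectopic, and each construct is represented by 1 line.

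Plants shed floral organs by separating cells in an abscission zone at the organ base. IDA is a small secreted peptide that is perceived there by the leucine-rich repeat receptor kinases HAE and HSL2, with SERK kinases as co-receptors. The signal runs through a MAP kinase cascade and ends in the expression of wall-degrading enzymes. HSL1 is a close relative of these receptors and has been tied mainly to other peptides and to leaf epidermis development. LFY is best known for turning on floral homeotic genes, well before floral organs are shed.

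A bound region next to HAE was found in both transgenic genotypes. The p35S:LFYTERE region lies on TAIR10 chromosome 4 from 14077373 to 14077600 and is 228 bp wide, and the p35S:LFY region lies from 14077323 to 14077597 and is 275 bp wide. They overlap by 225 bp, which is 98.7% of the p35S:LFYTERE region and 81.8% of the p35S:LFY region. Both lie outside protein-coding genes, with their nearest edge 75 bp (p35S:LFYTERE) and 78 bp (p35S:LFY) from the annotated end of HAE. The strand of HAE was not used here, so this end was not assigned to the start or the stop of the gene. The next genes on that side are DMP7, of a membrane protein family, and AT4G28480, whose nearest ends are 1.45 kb and 2.19 kb from the midpoint of the p35S:LFY region. HAE is the nearest gene of the region in either list.

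The coverage fold reduction (CFR) at HAE was 1.57 in the p35S:LFYTERE list and 1.67 in the p35S:LFY list. CFR is the normalized coverage in p35S:LFY divided by that in p35S:LFYTERE, so a value above 1 means less coverage in p35S:LFYTERE. At HAE, LFYTERE coverage was thus 63.6% of LFY coverage over the p35S:LFYTERE region and 59.8% over the p35S:LFY region. The same share was 36.3% for the median region of the p35S:LFYTERE list and 13.5% for that of the p35S:LFY list. The authors give 1 CFR per region over fused replicates, so no spread between replicates stands beside any of these values and none of the differences was tested. The depth behind a region and the Col-0 coverage there are unknown from the lists, so these percentages are shares of coverage and not of binding.

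**Figure D1:**
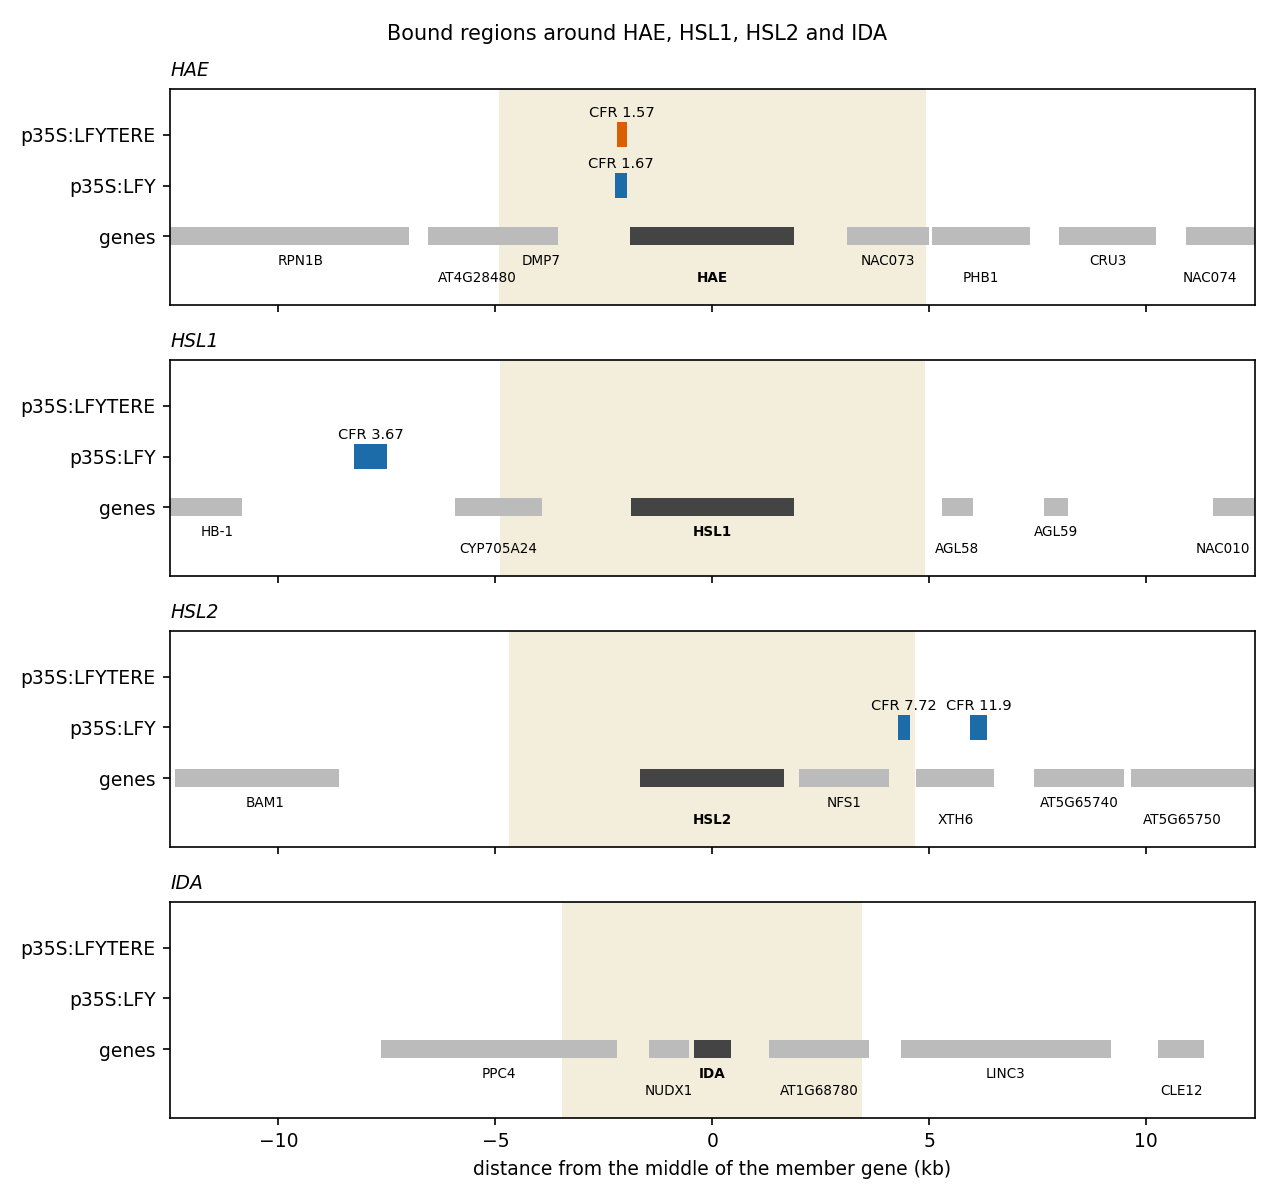
Regions of the p35S:LFYTERE list (orange) and of the p35S:LFY list (blue) around each of the 4 genes, against the distance in kb from the middle of the gene, with protein-coding genes in grey, the gene itself in black, and the 3 kb window shaded. HAE has a region of both lists beside it. Measured from the nearest end of the gene to the midpoint of the region, HSL2 has p35S:LFY regions at 2.76 kb and 4.48 kb and HSL1 has one at 6.01 kb, and IDA has none.

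The CFR at HAE was the eighth lowest of 176 in the p35S:LFYTERE list and the fourth lowest of 1954 in the p35S:LFY list. The 7 lower values of the p35S:LFYTERE list include 0.65, 0.73 and 1.06 at regions inside LFY, whose cDNA both transgenes carry. CFR had a median of 2.75 (quartiles 2.23 and 3.28) over the p35S:LFYTERE list and of 7.40 (quartiles 4.82 and 13.0) over the p35S:LFY list. Of the p35S:LFY regions, 15 had a CFR of 2 or less, or 0.768%, and all 15 overlapped a p35S:LFYTERE region. CFR is divided by LFYTERE coverage, so that a low CFR and a call in p35S:LFYTERE are not independent. Among these 15 regions the one at HAE was among the narrowest, with 3 of them narrower. Like it, 8 of the 15 lay outside genes, close to the 56.3% of all p35S:LFY regions that did. Since CFR was one of the measures for which HAE was chosen, its place in this order is a description.

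The rank of the HAE region differed between the lists. Rank is the authors' order of the regions within a list, with 1 the best. The authors report more mapped reads for each p35S:LFY replicate than for each p35S:LFYTERE replicate, and an effect on the calls was not tested. HAE stood at rank 58 of 176 in p35S:LFYTERE and at rank 1655 of 1954 in p35S:LFY, where 299 regions ranked worse. Of the 173 p35S:LFY regions that overlap a p35S:LFYTERE region, which are 8.85% of the list, 8 had a worse p35S:LFY rank than HAE, and the median p35S:LFY rank of the 173 was 538. The 52 p35S:LFYTERE regions that ranked better than HAE and overlapped a p35S:LFY region had a median p35S:LFY rank of 434. The share of p35S:LFY regions also called in p35S:LFYTERE was 16.4% at ranks 1 to 500 (exact binomial 95% interval over regions 13.3 to 19.9) and 2.86% at ranks 1501 to 1954 (1.53 to 4.85), the part of the list that holds HAE. In that part 13 of 454 regions were shared, and HAE had the lowest CFR of all 454. Some shared regions overlap the same p35S:LFYTERE region, as do those of ranks 1671 and 1850. The intervals treat regions as independent and hold no spread between replicates.

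**Figure D2:**
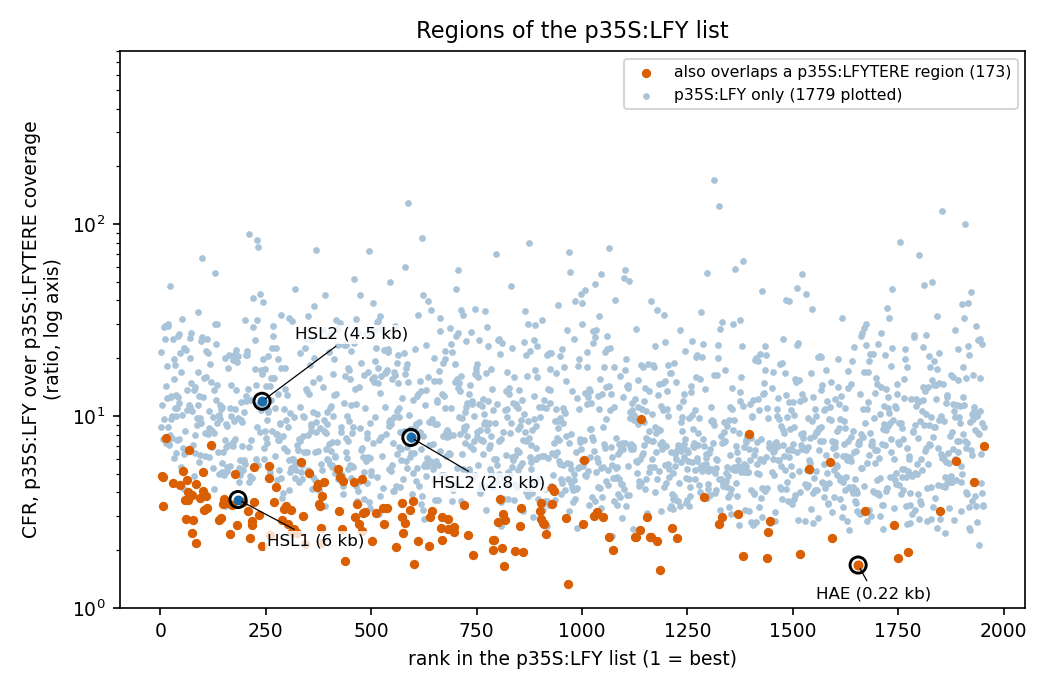
CFR (ratio, log axis) against rank for the regions of the p35S:LFY list, with regions that overlap a p35S:LFYTERE region in orange and the others in light blue. The circled regions, dark blue where not shared, are those within 10 kb of a member, with the distance of the midpoint to the gene, and 2 regions with a CFR above the axis are left out. The HAE region sits at the lower right, at rank 1655 with a CFR of 1.67, and the HSL1 and HSL2 regions sit to the left at ranks 184 to 594.

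The 8 p35S:LFY regions that ranked worse than HAE and were still shared lie nearest to 7 genes. Those with a CFR of 2 or less were near GUT2, a gene of xylan synthesis (rank 20 in p35S:LFYTERE and 1750 in p35S:LFY, CFR 1.74 and 1.82), and near AT1G70000 (rank 135 and 1774, CFR 1.90 and 1.95). The rest, near PFD3, PDIL1-4, AT5G60630, AT3G05220 and AT1G67900, had a CFR of 2.71 or more in the p35S:LFY list. Of these, only the region near AT1G67900 overlaps a p35S:LFYTERE region that overlaps no other p35S:LFY region, as at HAE. Each of the others covers 24.2 to 46.4% of a p35S:LFYTERE region that overlaps 2 p35S:LFY regions. Both regions near AT3G05220 overlap the same p35S:LFYTERE region, and those near AT5G60630 and PDIL1-4 likewise overlap a single one. At ranks 1501 to 1954 as a whole, 4 regions had a CFR of 2 or less, those of HAE, GUT2 and AT1G70000 and one near the actin gene ACT7 (rank 94 in p35S:LFYTERE and 1516 in p35S:LFY, CFR 1.88 and 1.90).

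**Figure D3:**
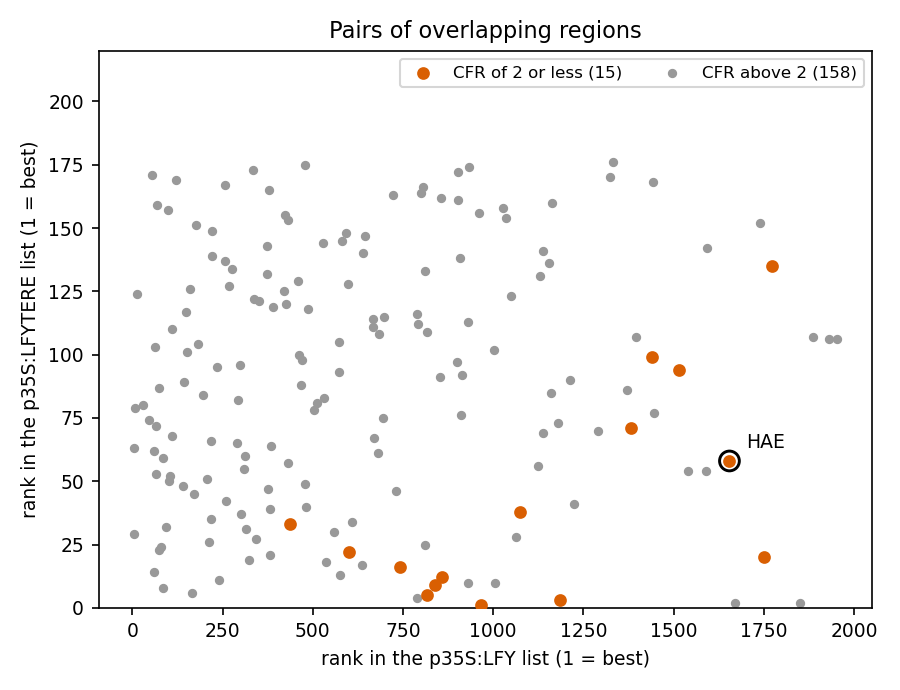
Rank in the p35S:LFYTERE list against rank in the p35S:LFY list for the 173 pairs of overlapping regions, with the 15 pairs of CFR 2 or less in orange. HAE is circled at rank 58 in p35S:LFYTERE and rank 1655 in p35S:LFY.

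The CFR of HAE differed little between the bounds of its regions in both lists. The quotient of both CFR values, p35S:LFY list over p35S:LFYTERE list, was 1.06 for the HAE pair, and 1.06 was also the median over 163 pairs in which each region overlaps a single other (5th to 95th percentile 1.01 to 1.20). The p35S:LFYTERE region of HAE is 0.829 times as wide as its p35S:LFY region, against a median of 0.742 over the same pairs. Both regions were narrow for their lists. In the p35S:LFYTERE list 161 of 176 regions were wider, and in the p35S:LFY list 1728 of 1954 were wider. In both lists HAE belongs to the regions outside genes and within 250 bp of one. These number 37 of 176 in p35S:LFYTERE (21.0%, exact binomial 95% interval over regions 15.3 to 27.8) and 344 of 1954 in p35S:LFY (17.6%, 15.9 to 19.4). The median CFR of this class was 2.97 in the p35S:LFYTERE list and 6.96 in the p35S:LFY list, so that HAE lay below the class in both. From the HAE regions, the next p35S:LFYTERE region was 80.1 kb away and the next p35S:LFY region 60.8 kb away. The usual spacing of regions in each list was not computed, so these distances are not called long or short.

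HSL2, the second receptor of IDA, had no p35S:LFYTERE region within 10 kb, and the nearest one was 196.7 kb away. It had a single p35S:LFY region within 3 kb, on chromosome 5 from 26298303 to 26298586 (284 bp, rank 594), with a CFR of 7.72, close to the median of the list. Its midpoint is 2.76 kb from HSL2, just inside the window, and NFS1, the gene of a cysteine desulfurase for iron-sulphur clusters, lies between them. The nearest gene is XTH6, of a family of xyloglucan-modifying wall enzymes, at 283.5 bp, followed by NFS1 at 353.5 bp. A second p35S:LFY region, from 26299958 to 26300367 (410 bp, rank 241), lies inside XTH6 and outside the 3 kb window, 4.48 kb from HSL2, with a CFR of 11.9. Their midpoints are 1.72 kb apart, and the one nearer to HSL2 had the lower CFR. LFYTERE coverage was 12.9% of LFY coverage at the first and 8.39% at the second.

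HSL1 had no region of either list within 3 kb. The nearest p35S:LFYTERE region was 345.8 kb away. The nearest p35S:LFY region, on chromosome 1 from 9990334 to 9991080, is 6.01 kb from HSL1, beyond the cytochrome P450 gene CYP705A24, its nearest gene at 1.95 kb. The homeobox gene HB-1 is the other gene within 3 kb of it. At 747 bp this region is one of the widest, with 6 of the 1954 wider, and it ranks 184. Its CFR of 3.67 was below the lower quartile of 5.35 of the 1781 p35S:LFY regions that overlap no p35S:LFYTERE region, whose lowest value was 2.13. LFYTERE coverage was 27.3% of LFY coverage there.

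IDA, the ligand gene, had no region of either list within 10 kb. The nearest p35S:LFYTERE region was 155.7 kb away, at AP1, and the nearest p35S:LFY region was 39.7 kb away, with RTFL15 as its nearest gene.

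Across the 4 genes, 1 had a p35S:LFYTERE region within 3 kb, against 1.49% of all protein-coding genes, and 2 had a p35S:LFY region, against 13.5%. HAE alone had a region of both lists (1.46% of all genes) and a p35S:LFY region of CFR 2 or less (0.149%). With 1 kb the numbers were 1 of 4 for p35S:LFYTERE (0.846% of all genes) and 1 of 4 for p35S:LFY (7.67%). With 10 kb they were 1 of 4 for p35S:LFYTERE (3.89% of all genes) and 3 of 4 for p35S:LFY (31.5%). The genes were chosen for these regions, so nothing is read from the counts. A p35S:LFY region lies within 3 kb of 2.20 protein-coding genes on average, and the HSL2 region is within that distance of 4. A region at HAE or HSL2 is a place on the genome, and expression of these genes was not measured in the files used here.

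Among the IDA-like genes, which encode peptides related to IDA, 1 of 5 had a p35S:LFYTERE region within 3 kb and 3 of 5 had a p35S:LFY region, beside the 1.49% and 13.5% of all genes given above for each list. IDL1 had a shared region on chromosome 3, from 9338804 to 9339025 in p35S:LFYTERE (rank 97, CFR 2.93) and from 9338765 to 9339072 in p35S:LFY (rank 901, CFR 3.21), although AT3G25660 is nearer to it. IDL4 is itself the nearest gene of a p35S:LFY region on chromosome 3 from 6439903 to 6440286 with a CFR of 30.8 at rank 1332, higher than 94.9% of the list or equal to it. IDL5 had a p35S:LFY region at 2.09 kb with a CFR of 7.07, which is nearer to AT1G76954. IDL2 and IDL3 had none. CFR near IDA-like genes thus ran from 3.21 to 30.8 in the p35S:LFY list. HAE, chosen in part for its CFR, had 1.67, and only 3 of the 1954 p35S:LFY regions had a lower value, so nothing is read from this difference.

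Of 24 other genes of floral organ abscission, 1 had a p35S:LFYTERE region within 3 kb (4.17%, against 1.49% of all genes) and 4 had a p35S:LFY region (16.7%, against 13.5% of all genes). The p35S:LFY share is close to that of all genes. BOP1, whose BTB-ankyrin protein is needed for the abscission zone to form, had a p35S:LFYTERE region on chromosome 3 from 21146034 to 21146251 (rank 128, CFR 3.02). It had 3 p35S:LFY regions, from 21145937 to 21146315 (rank 599, CFR 3.59, overlapping the p35S:LFYTERE region), from 21147383 to 21147724 (rank 1301, CFR 6.40) and, inside the gene, from 21148467 to 21148659 (rank 1787, CFR 25.8). The paralogue BOP2 had a p35S:LFY region at 0.422 kb (rank 1246) with a CFR of 3.53, not called in p35S:LFYTERE. SERK2, a co-receptor of HAE, had a p35S:LFY region at 1.60 kb with a CFR of 9.39, and CST, the cytoplasmic kinase CAST AWAY, had one at 2.47 kb with a CFR of 7.16, each nearer to another gene. SERK1, BAK1, SERK4, the kinases MKK4, MKK5, MPK3 and MPK6, the homeobox genes KNAT1, KNAT2 and KNAT6, the MADS-box genes AGL15 and AGL42 and the polygalacturonase genes ADPG1, ADPG2 and QRT2 had no region of either list in the window. The 6 p35S:LFY regions of this list had a median CFR of 6.78, beside 7.40 over the whole p35S:LFY list.

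Of 15 other receptor kinases of the leucine-rich repeat XI group, none had a p35S:LFYTERE region within 3 kb, against 1.49% of all genes, and 2 had a p35S:LFY region (13.3%, against 13.5% of all genes). Neither count stands apart from all genes. PEPR2, a receptor of plant elicitor peptides, had one at 1.19 kb with a CFR of 17.7, and BAM2, a relative of CLV1, had one at 1.78 kb with a CFR of 5.86, both nearer to another gene. CLV1, PXY, RLK7, IKU2 and BAM1, the kinase gene next to HSL2, were among those with none.

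**Figure D4:**
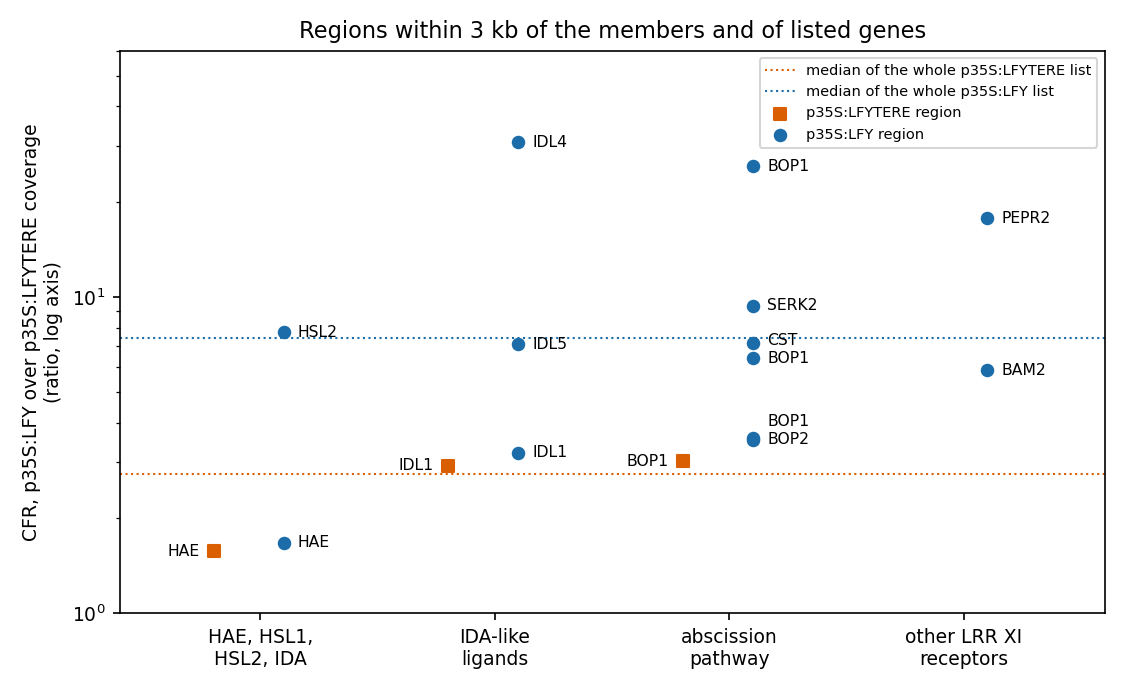
CFR (ratio, log axis) of every region within 3 kb of HAE, HSL1, HSL2 and IDA, of IDA-like genes, of other abscission genes and of other leucine-rich repeat XI receptor genes, with p35S:LFYTERE regions as orange squares and p35S:LFY regions as blue circles. Dotted lines mark the medians of the whole lists, 2.75 for p35S:LFYTERE and 7.40 for p35S:LFY, and the HAE regions lie below both.

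Likeness of other regions to those of the members was measured as the difference in log2 CFR plus the difference in log2 rank in the p35S:LFY list, both without sign, over regions with the same state of sharing. Among the other 172 shared regions the most like HAE were those near GUT2 (0.20), ACT7 (0.31) and AT1G63290 (0.32, rank 1440, CFR 1.81). Over 1779 regions not shared, those most like the HSL2 region at rank 594 were near AT4G39160, near FLA10, an arabinogalactan protein gene, and near AT4G15430, at distances of 0.06 to 0.10 and with CFR from 7.45 to 7.86. Those most like the HSL1 region were near PI4K GAMMA 7, EXL2 and QRT3, at distances of 0.33 to 0.37 and with CFR from 3.39 to 4.55.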

How the data were processed

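Mapping to TAIR10 (build named in the submitters' processing notes), removal of duplicates and peak calling were done by the authors with SHORE. A region entered a list when each transgenic replicate passed a false discovery rate of 1e-07 against each Col-0 replicate (4 comparisons). Both lists share these controls. The deposited rank is a score with no unit. The deposited CFR is a linear ratio that the authors computed from the coverage of reads extended by 130 bp, after scaling replicates to each other and genotypes over Col-0 background peaks. Reads per replicate were not used here.

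Regions were assigned by midpoint to protein-coding genes of a RefSeq table of TAIR10.1, used for names, distances and neighbours. The planned motif search and protein comparison need sequence, which was not used here, and were not run. As a check of positions, 56.3% of p35S:LFY midpoints lay outside genes, against 33.5 to 45.5% when moved by 1 to 50 kb. Lists overlapped at 1 bp or more. The named genes were the members, genes within 3 kb of their regions, genes of 3 lists (44 genes, all matched by locus) with a region within 3 kb, and the genes of the 3 most like regions; genes of shared regions ranked worse than HAE and listed genes without a region were named after their values were seen. The members and lists were chosen with earlier results of these data known. Python 3.11.15, pandas 2.3.3, scipy 1.17.1 and matplotlib 3.10.9 were used. Placement was tested on simulated data.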

Additional observations from a re-analysis of the deposited data

How the results depend on the processing

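The p35S:LFYTERE region of HAE was found under every window tried and in the better-ranked 88 of its list, and its overlap with the p35S:LFY region held under every overlap rule and window tried. The p35S:LFY region of HAE is not among the better-ranked 1000, so no overlap exists under that limit. The number of p35S:LFY regions within 3 kb of the 4 genes was 2. It was 1 with a window of 1 kb, 4 with 10 kb, 1 with the nearest gene only and 1 among the better-ranked 1000 regions, and the number of genes with such a region was 1 with the window of 1 kb, the nearest gene only and the 1000 regions. The region lost was that of HSL2 with 1 kb and with the nearest gene only, and that of HAE among the 1000 regions. The CFR of HAE was 1.57 from the p35S:LFYTERE list. As a percentile among shared p35S:LFY regions, CFR was 2.31 for HAE, 74.0 for HSL1, and 98.8 and 100 for the HSL2 regions at ranks 594 and 241, against 0.205, 12.7, 52.5 and 72.1 among all p35S:LFY regions. The HSL1 and HSL2 regions are not shared and so stand outside this set, whose CFR had a median of 2.99 and a maximum of 9.62. Among regions within 20% of its width the percentile was 15.9 for HSL1, 47.6 for HSL2 at rank 594 and 74.5 at rank 241. Among the better-ranked 1000 regions it was 48.3 and 69.4 for the HSL2 regions. No paired analysis was possible because the lists hold values over fused replicates, and for the same reason no replicate could be left out.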

Other observations

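Another leucine-rich repeat receptor kinase gene, BRI1, the brassinosteroid receptor, was the nearest gene of one of the 15 p35S:LFY regions with a CFR of 2 or less (CFR 2.00, rank 1074). That region overlaps a p35S:LFYTERE region of rank 38, but its midpoint is 2.91 kb from BRI1, against 0.216 kb for HAE. BRI1 was chosen after its values were seen, and the other genes near these 15 regions were not sorted by protein family.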
